A study of Homo sapiens with 38 samples.

Results

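The sgRNA counts of Hep3B cells grown with Erastin were set directly against those of Hep3B cells grown with Sorafenib, with no vehicle in the contrast. The 4 libraries, Erastin 1 and 2 and Sorafenib 1 and 2, were chosen by their labels from 38 samples in all. Hep3B is a human hepatocellular carcinoma (HCC) line, here made to express Cas9 and transduced with the TKOv3 knockout library, and both groups were cultured for 14 days at a dose near the IC20, which inhibits about 20% of growth. The other samples, most of them screens with 4 further inhibitors or from the line SNU-398, served only as context. No source says that the 2 libraries of a group came from separate cultures. The p-values of edgeR, a test on counts, therefore rest on a spread between libraries that may be technical. Those of NormZ, a score per gene explained below, rest on the spread over sgRNAs and not on that between libraries.

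In a pooled knockout screen, each cell carries an sgRNA that directs Cas9 to a gene, and the abundance of that sgRNA after culture reads out how the knocked-out cells grew. Erastin blocks system xc-, the cystine importer built from SLC7A11 and SLC3A2. Cystine feeds glutathione synthesis, GPX4 uses glutathione to detoxify lipid peroxides, and cells that lose this protection die by ferroptosis, an iron-dependent form of death. Sorafenib is a kinase inhibitor of RAF proteins and of receptors for VEGF and PDGF, and has also been reported to inhibit system xc-. The direct contrast asks which knockouts left cells more or less abundant under one drug than under the other. Following the paper's usage, NormZ is a score per gene built from its sgRNAs, here negative where sgRNAs were lower under Erastin than under Sorafenib and positive where they were higher. A difference cannot by itself be assigned to either drug, and vehicle values are given beside some genes for orientation only.

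The Hep3B table held 66890 sgRNAs, of which 66758 targeted 18031 genes and 132 were controls without a human target (89 for LacZ, 22 for luciferase and 21 for EGFP). Total counts were 22428684 and 12718674 under Erastin, and 22475286 and 13209868 under Sorafenib. Of these counts per sgRNA, 88.7% to 98.1% were even numbers in a library, with counts of 0 taken as even. The variance between the libraries of a group was 2.60 times (Erastin) and 2.71 times (Sorafenib) that of binomial sampling of the deposited counts. It was 1.30 and 1.35 times after division of the counts by 2. Many sgRNAs had been lost, with 46.0% and 47.6% at a count of 0 under Erastin and 52.8% and 50.5% under Sorafenib, against 38.7% and 39.4% with vehicle and 4.34% and 6.43% at T0, before treatment. The counts of a typical gene therefore rested mostly on 1 sgRNA, and the median gene had 90.5% of its scaled counts in its most abundant sgRNA.

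Erastin and Sorafenib left different sets of sgRNAs abundant, and control sgRNAs differed between the drugs about as widely as sgRNAs that cut a gene. Among 22034 sgRNAs with a mean of at least 30 counts after scaling each library to 1e+07, the log2 difference between drugs had an SD of 1.38 for targeting sgRNAs and 1.34 for the 46 control sgRNAs. It was 1.39 for 397 sgRNAs against olfactory receptor genes, whose main known role is in smell. Between the 2 libraries of a drug, the SD was 0.252 under Erastin and 0.274 under Sorafenib. Differences of more than 1 on the log2 scale, in either direction, were seen for 38.0% of targeting sgRNAs, 36.5% of olfactory receptor sgRNAs and 30.4% of control sgRNAs. The control sgRNAs ranged from -3.46 to 3.48, and the 29 against LacZ alone spanned that whole range. As a description across these sgRNAs, log2 counts correlated at 0.990 between the Erastin libraries and 0.991 between the Sorafenib libraries, but at only 0.734 to 0.744 across the drugs. The plot of sgRNA differences shows this contrast of a narrow spread within and a wide spread between drugs.

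**Figure D1:**
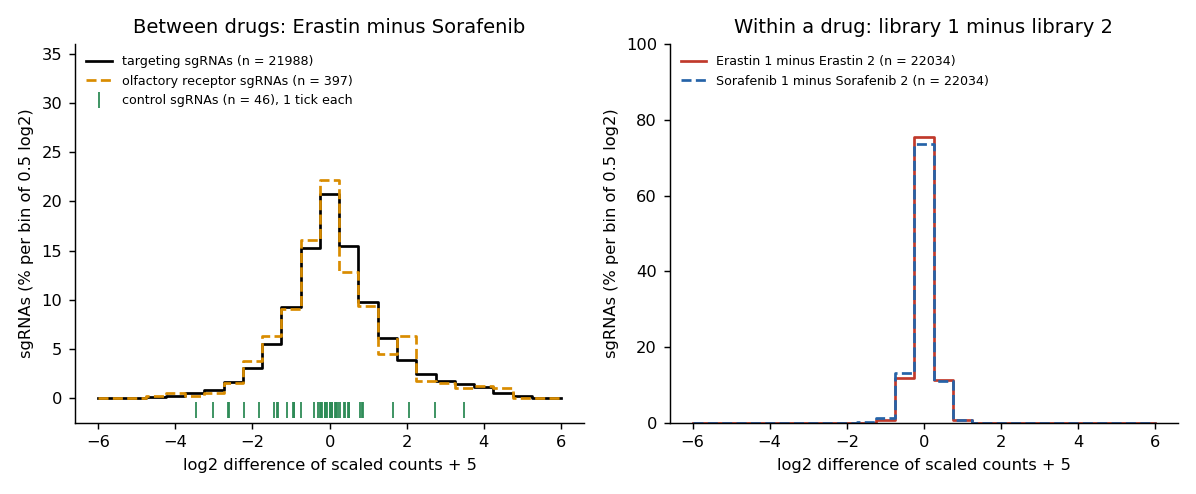
Percent of sgRNAs in bins of 0.5 by their log2 difference in scaled counts (5 added), between drugs on the left and between the libraries of a drug on the right. Targeting sgRNAs (solid line) and olfactory receptor sgRNAs (dashed line) have nearly the same spread between drugs, the 46 control sgRNAs (ticks) reach from -3.46 to 3.48, and differences within a drug stay narrow (SD 0.252 and 0.274).

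Tests on the spread between libraries accordingly called a large part of the table. Of 43863 targeting sgRNAs tested by edgeR's quasi-likelihood test, 25921 passed at an adjusted p under 0.05 (59.1%), 11477 lower (26.2%) and 14444 higher (32.9%) under Erastin. Of 84 control sgRNAs, 40 passed (47.6%), 23 lower (27.4%) and 17 higher (20.2%), and of 806 olfactory receptor sgRNAs, 471 passed (58.4%). After summing counts per gene, 13058 of 17853 genes passed (73.1%), of which 6331 were lower (35.5%) and 6727 higher (37.7%). When libraries were scaled to the control sgRNAs instead, 4532 genes were lower and 8436 higher, and the median of all genes moved to 0.21 on the log2 scale. Olfactory receptor genes passed at 254 of 332. An edgeR call in this contrast therefore says only that a difference exceeded the spread between libraries of the same group, estimated over all 16 Hep3B libraries.

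The sgRNAs of a gene did not move together over the table. Among sgRNAs with a mean scaled count of at least 30, the correlation of the log2 difference between 2 sgRNAs of the same gene was 0.00458 over 10301 pairs, and 50.4% of the pairs had the same sign. Over 3798 pairs with a mean of at least 100 it was 0.00311. The same measure was 0.0324 for vehicle minus T0, over 13118 pairs of Hep3B. These values are descriptions, since pairs share genes and libraries. Only 6441 genes (35.7%) had at least 2 sgRNAs at that level in these libraries, and 4322 genes had none.

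A gene was therefore described in 3 ways: NormZ at p under 0.01 from the normal distribution over sgRNAs, the edgeR call on summed counts, and concordance, meaning at least 2 sgRNAs beyond the same end of the control range and none beyond the other. That range ran from -3.92 to 4.81, the 5th to 95th percentile of 84 control sgRNAs in the edgeR fit. Where an sgRNA was at or near 0 under one drug, its fitted difference depends on the prior count of the fit and only its CPM are given. NormZ called 347 of 18031 genes (1.92%), 182 lower (1.01%) and 165 higher (0.915%) under Erastin. At a false discovery rate under 0.05 it called 9 genes lower (0.0499%) and 11 higher (0.061%). Concordance was found for 53 genes lower (0.358%) and 303 higher (2.05%) of 14793 genes with 2 or more tested sgRNAs, and for 1 (0.375%) and 5 (1.87%) of 267 olfactory receptor genes. Of the 338 olfactory receptor genes, 9 had a NormZ p under 0.01 (2.66%), a share whose difference from 1.92% was not tested. The number of concordant genes rested on single libraries, with 21 lower and 175 higher without Sorafenib 1 and 84 lower without Erastin 1, and the genes below were picked with it. All 3 criteria were met by 10 genes lower under Erastin and by 41 higher.

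The 10 genes lower under Erastin have varied known functions, and several are genes of other tissues. KIAA0020, a nucleolar RNA-binding protein, had the lowest NormZ of them at -3.36, with 82.4 and 86.3 CPM (counts scaled to a common library total) under Erastin and 144 and 144 under Sorafenib. The vehicle mean was 83.4 CPM, so the Erastin libraries lay at the vehicle level and the Sorafenib libraries above it. Its log2 difference was -0.77 (SE 0.06).

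C5AR1, the receptor for complement C5a, had 3.03 and 2.91 CPM under Erastin and 23.3 and 20.2 under Sorafenib, with a NormZ of -3.34 and a vehicle mean of 12.1. REEP5, which shapes tubules of the endoplasmic reticulum, had 0.178 and 0.157 CPM under Erastin and 9.38 and 9.38 under Sorafenib, and no sgRNA of it reached a mean of 30 scaled counts. GFPT2, an enzyme that feeds the hexosamine pathway, had 33.1 and 35.6 CPM under Erastin against 62.8 and 69.4 under Sorafenib (log2 difference -0.95, SE 0.08, NormZ -3.10). In each of these genes both Erastin libraries lay below both Sorafenib libraries, which held for 82.1% of all tested genes in one direction or the other.

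CAPN15, a member of the calpain protease family, had 5.80 and 6.6 CPM under Erastin and 40.2 and 42.0 under Sorafenib, a log2 difference of -2.74 (SE 0.14). One sgRNA held most of it, at 33.5 and 36.5 CPM under Sorafenib against 1.91 and 2.04 under Erastin, while its vehicle libraries had only 0.811 and 1.64. The other members were PAX7, a muscle stem cell transcription factor (NormZ -3.07), SLC5A2, the sodium-glucose transporter of the kidney (-2.99), RHBDL2, a rhomboid protease (-2.68), MYLK3, a myosin light chain kinase of the heart (-2.64), and OR4C5, an olfactory receptor (-2.62). NormZ lost its call for MYLK3 without Erastin 2 (-2.40) or Sorafenib 1 (-2.38), and for RHBDL2 without Sorafenib 2 (-2.55). Under at least 1 of the alternatives tried, 9 of the 10 lost it. With only sgRNAs of at least 30 mean scaled counts, NormZ was -2.13 for KIAA0020, -1.95 for C5AR1, -1.93 for GFPT2, -2.26 for CAPN15, -0.95 for MYLK3 and -1.38 for OR4C5, none of which passed. With a pseudocount of 20, it was -2.40 for PAX7, -2.55 for SLC5A2, -2.33 for RHBDL2, -2.5 for MYLK3 and -2.14 for OR4C5, and these did not pass either. REEP5 kept its call wherever it could be fitted, but had no sgRNA in the fit with the higher count minimum. For none of the 10 was the NormZ false discovery rate under 0.05, the lowest being 0.185 for KIAA0020.

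PSMG2 and CDC20, both needed in dividing cells, led the 41 genes higher under Erastin. PSMG2, a chaperone that assembles the proteasome core, had 147 and 157 CPM under Erastin and 81.4 and 79.6 under Sorafenib, with a vehicle mean of 128. Its log2 difference was 0.91 (SE 0.05) and its NormZ of 4.81 was the highest of all genes (false discovery rate 0.00893). All 4 of its sgRNAs were higher under Erastin by edgeR. sgRNA 1 and sgRNA 3 had log2 differences of 1.78 and 0.41. sgRNA 2 was at 17.1 and 13.6 CPM under Erastin and at 0 and 0.505 under Sorafenib, and sgRNA 4 at 2.82 and 2.35 against 0.0981 and 0.

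CDC20, which activates the anaphase-promoting complex, had 97.3 and 105 CPM under Erastin and 65.2 and 63.2 under Sorafenib (NormZ 4.59). Here the sgRNAs were split. sgRNA 1 was at 20.4 and 25.1 CPM under Erastin and 0.392 and 0.757 under Sorafenib, and sgRNA 4 at 33.6 and 31.5 against 0 and 0.336. sgRNA 2 and sgRNA 3 were lower under Erastin, with log2 differences of -1.16 and -0.30. The gene met the concordance criterion because neither of these lay below the control range.

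HYOU1, a chaperone of the endoplasmic reticulum, had 67.0 and 58.7 CPM under Erastin and 8.12 and 10.9 under Sorafenib (log2 difference 2.77, SE 0.11, NormZ 4.17), with a vehicle mean of 31 in between. GEMIN5, which recognises small nuclear RNAs for the SMN complex, had 14.7 and 17.0 CPM under Erastin and 0.0967 and 0 under Sorafenib. RNF135, a ubiquitin ligase that acts on the RNA sensor RIG-I, had 25.5 and 32.5 CPM under Erastin against 0.580 and 2.20 (NormZ 3.93). For the other members of the leading 10, NormZ was 4.46 for XIRP1, an actin-binding protein of muscle, 4.44 for RNASE4, a secreted ribonuclease, and 4.30 for CLVS2, a clathrin-associated protein of neurons. It was 4.14 for SPHKAP, an anchor of protein kinase A, and 4.09 for CLECL1, a lectin-like protein of immune cells. Under the alternatives tried, 0 of these leading 10 lost the NormZ call, against 9 of the 10 lower genes. These sets are not alike, since NormZ was 3.93 to 4.81 in the former and -3.36 to -2.62 in the latter. Genes nearer to the threshold are more easily lost. The remaining higher genes, with NormZ down to 2.60, were not part of this count. The number of genes higher at a false discovery rate under 0.05 fell from 11 to 1 with only sgRNAs of at least 30 mean scaled counts. Of the 41 genes, 18 had a Sorafenib mean under 1 CPM, and 3 of the 10 lower genes had an Erastin mean under 1 CPM. Such low values follow in part from the concordance criterion, which asks for sgRNAs beyond -3.92 or 4.81. The vehicle mean lay between the 2 drugs for 31 of the 41 and 7 of the 10. Shares over all genes were not computed for these counts, so they are not read as traits of the sets. The plot of CPM by library shows both sets.

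**Figure D2:**
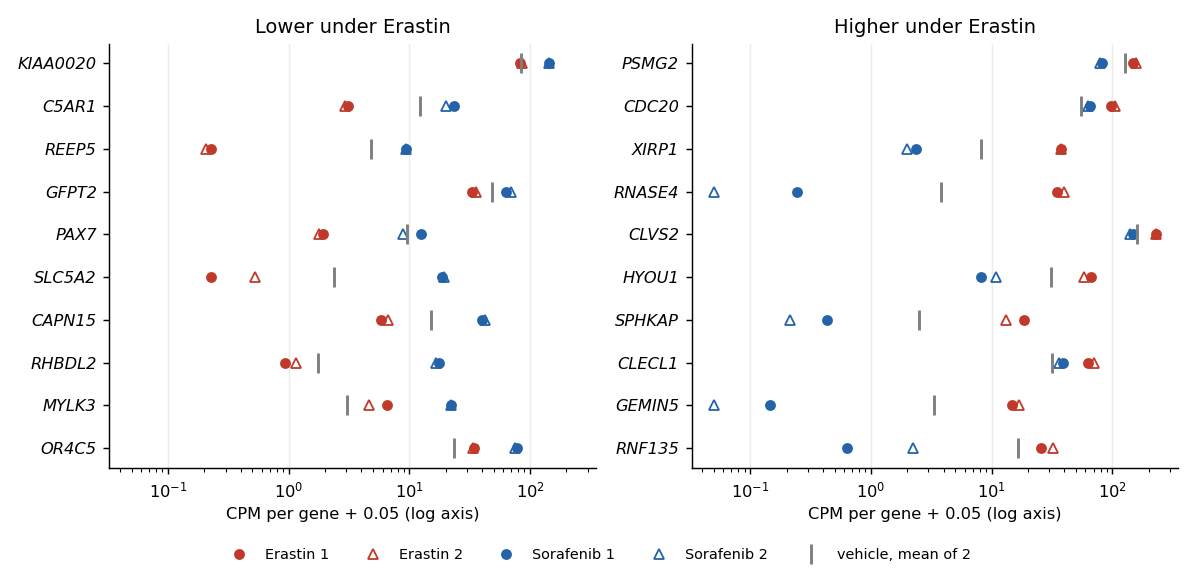
CPM per gene with 0.05 added (log axis) in each of the 4 libraries, with the mean of the 2 vehicle libraries as a bar, for the 10 genes of each direction with the largest absolute NormZ among those that met all 3 criteria. The libraries of a drug lie close together in each gene, and GEMIN5 and RNASE4 are at 0 in the second Sorafenib library.

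Loss of sgRNAs was uneven between the drugs. At least 30 scaled counts in both Erastin libraries and 0 in both Sorafenib libraries were found for 364 targeting sgRNAs, against 53 with the opposite pattern. The 364 fell in 363 genes, with 1 gene represented by 2 of them. The first pattern held for 0.545% of 66758 targeting sgRNAs and for 0.564% of 1242 olfactory receptor sgRNAs (7), and the second for 0.0794% and 0.0805% (1). Of 132 control sgRNAs, 0 had either pattern, too few to show a difference at such shares. The Erastin libraries also stayed closer to the untreated pool. As a description over 22034 sgRNAs, the mean log2 counts of Erastin correlated at 0.826 with T0 and 0.862 with vehicle, and those of Sorafenib at 0.726 and 0.805. With the other 4 inhibitors, the Sorafenib profile correlated at 0.834 to 0.867 and the Erastin profile at 0.780 to 0.843. The part of this uneven loss in the larger number of concordant genes higher under Erastin was not tested.

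The lowest NormZ values of all came from genes that did not meet the concordance criterion. SCCPDH, a probable oxidoreductase of lipid droplets, had 14.9 and 22.6 CPM under Erastin and 106 and 110 under Sorafenib, with a log2 difference of -2.57 (SE 0.09) and a NormZ of -5.50. PHF19, a Polycomb-associated protein, had 154 and 164 CPM under Erastin and 359 and 356 under Sorafenib, with the same NormZ of -5.50. The other genes lower at a false discovery rate under 0.05 were C5orf55, STARD5, ACTR3C, B3GALTL, RNF19B, ZYG11B and H3F3C, with NormZ from -4.62 to -4.16. ACTR3C was represented by a single sgRNA. In all 9 the edgeR call had the same direction, and in none did 2 sgRNAs lie below the control range.

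The cystine and glutathione branch, where Erastin acts, gave no gene with a NormZ p under 0.01. SLC7A11, the catalytic subunit of system xc-, had 2.59 and 2.44 CPM under Erastin and 21.9 and 22.7 under Sorafenib, and a vehicle mean of 12.5. The log2 difference was -3.13 (SE 0.19), with an adjusted p of 1.55e-59 by edgeR, and NormZ was -2.27 (false discovery rate 0.687). The gene had 2 sgRNAs, of which 1 carried all of these counts, so no agreement between sgRNAs could be read. Of the 12 members of cystine import and glutathione synthesis, 6 were lower and 2 higher by edgeR, which called 35.5% of all genes lower and 37.7% higher, and the median NormZ was -0.47 against -0.08 over all genes. GCLC, the catalytic subunit of the first enzyme of glutathione synthesis, had a log2 difference of -0.04 (SE 0.03) and a NormZ of 1.92. CHAC1, which degrades glutathione, had a NormZ of -1.19, and GLS2, a mitochondrial glutaminase, 0.85.

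GPX4, the selenoprotein that reduces lipid peroxides, had 6.87 and 9.91 CPM under Erastin and 13.4 and 13.3 under Sorafenib, with a NormZ of -0.68 (false discovery rate 0.998). Its log2 difference was -0.71 (SE 0.17), which edgeR no longer called without Erastin 1 (-0.43), and its sgRNAs pointed in different directions, with sgRNA 2 at -1.60 and sgRNA 3 at 0.39. Over 20 ferroptosis suppressors, 9 were lower and 9 higher by edgeR (90% called, against 73.1% of all genes), with a median NormZ of 0.09. VKORC1L1, an enzyme that reduces vitamin K, was the only concordant member (lower). MBOAT1, a phospholipid acyltransferase, had the highest NormZ of the list at 2.36, and 99.3% of its counts lay in 1 sgRNA.

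PSTK, a kinase of selenocysteine synthesis that acts on tRNA-bound serine, had 283 and 279 CPM under Erastin and 227 and 223 under Sorafenib. Both drugs lay below the vehicle mean of 434 CPM. The log2 difference between the drugs was 0.32 (SE 0.04), with an adjusted p of 1.37e-17 by edgeR and a NormZ of 2.10 (false discovery rate 0.783). Of its counts, 97.9% came from sgRNA 1, at 280 and 272 CPM under Erastin and 227 and 226 under Sorafenib. sgRNA 2 had a log2 difference of -0.32. sgRNA 3 had 0.818 and 0.627 CPM under Erastin against 0 and 0.336, and sgRNA 4 had 4.0 and 3.29 against 0.0981 and 0. SEPSECS, which completes selenocysteine synthesis, had 37.6 and 35.9 CPM under Erastin against 31.8 and 29.5, with a NormZ of 0.24.

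In the selenocysteine machinery as a whole, 1 of 10 genes was lower and 7 were higher by edgeR, 80.0% called against 73.1% of all genes, with a median NormZ of 0.44. SECISBP2, which binds the selenocysteine insertion element, had a NormZ of 1.13, SEPHS2, the selenophosphate synthetase, 1.05, and LRP8, a receptor for selenoprotein P, -1.01. Of 24 selenoproteins, 9 were lower and 13 higher, with a median NormZ of 0.19. SEPP1, selenoprotein P, had the highest value at 2.19. TXNRD1, the cytosolic thioredoxin reductase, had 68.6 and 69.1 CPM under Erastin and 24.0 and 21.6 under Sorafenib (log2 difference 1.58, SE 0.09, NormZ 1.46), and its vehicle mean of 66.1 lay at the Erastin level. Of its counts, 84.6% came from 1 sgRNA, and the second abundant sgRNA had a log2 difference of -0.08. TXNRD3 had a NormZ of 0.20. GPX6, an olfactory glutathione peroxidase, EPT1, an ethanolamine phosphotransferase, and DIO1, a thyroid hormone deiodinase, had NormZ of 1.88, 1.83 and 1.58.

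ACSL4, which loads polyunsaturated fatty acids into phospholipids and so favours ferroptosis, had 27.0 and 22.8 CPM under Erastin and 54.4 and 63.1 under Sorafenib. Its sgRNAs disagreed: sgRNA 1 and sgRNA 3 were lower under Erastin, with log2 differences of -3.09 and -2.5, and sgRNA 4 was higher, at 17.3 and 14.7 CPM against 0.196 and 0. NormZ was -0.84. Of 25 ferroptosis drivers, 10 were lower and 12 higher by edgeR (88% called, against 73.1% of all genes), with a median NormZ of 0.27. FAR1, a peroxisomal enzyme of ether lipid synthesis, had 1.52 and 1.81 CPM under Erastin and 25.2 and 25.3 under Sorafenib, with 98.3% of counts in 1 sgRNA and a NormZ of -2.01. TFRC, the transferrin receptor, had a NormZ of 1.87, and FADS1, a fatty acid desaturase, 1.57. KEAP1, the repressor of NRF2, had 73.3 and 75.9 CPM under Erastin against 60.5 and 66.7, with a NormZ of 0.55. The plot of single sgRNAs shows how these genes were represented.

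**Figure D3:**
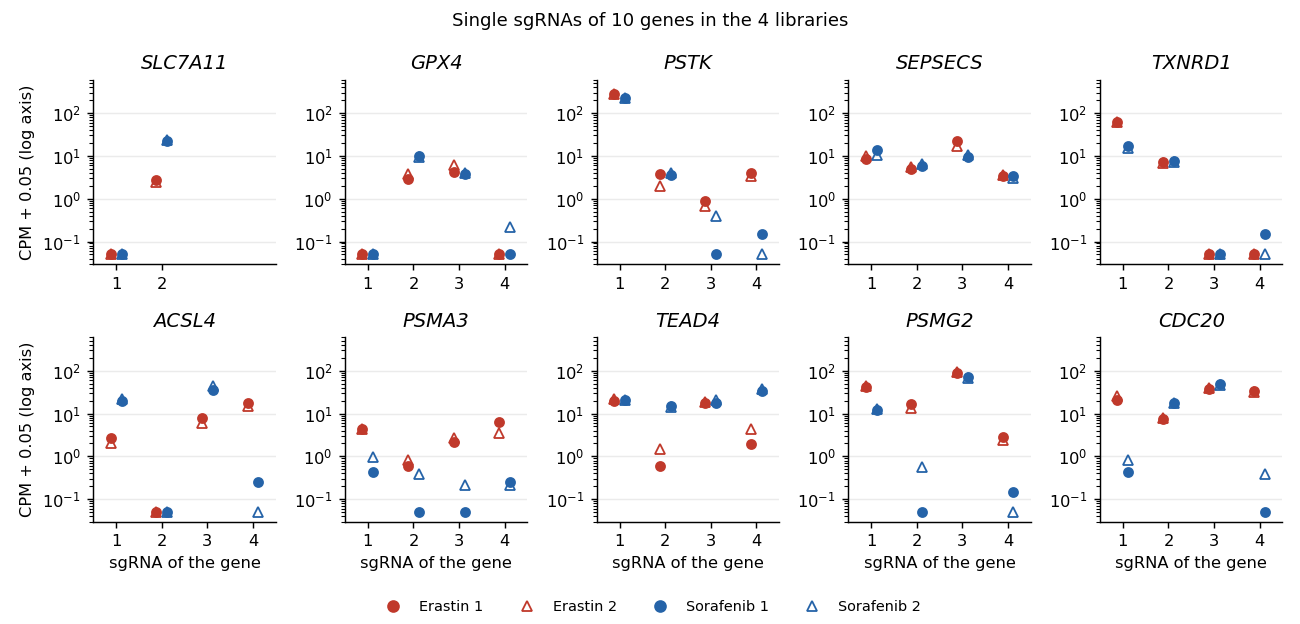
CPM of each sgRNA with 0.05 added (log axis) for 10 genes in the 4 libraries, with points at 0.05 standing for a count of 0. The sgRNAs of ACSL4 and of CDC20 point in different directions, PSTK rests on sgRNA 1 and SLC7A11 on sgRNA 2, and all 4 sgRNAs of PSMG2 are higher under Erastin.

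Iron genes gave 4 lower and 4 higher of 15 by edgeR (53.3% called, against 73.1% of all genes), with a median NormZ of -0.14. ACO1, an iron-responsive RNA-binding aconitase, had a NormZ of 1.47, HFE, a regulator of iron uptake, 1.42, and NCOA4, the receptor for ferritin degradation, -1.27. The voltage-dependent anion channels, mitochondrial proteins to which erastin is known to bind, gave 2 lower and 1 higher of 3. VDAC1 had 47.3 and 50.5 CPM under Erastin and 122 and 116 under Sorafenib (NormZ -1.43). VDAC3 had 13.6 and 12.7 against 27.2 and 26.2 (NormZ -0.91), whereas VDAC2 had 6.06 and 6.45 against 0.193 and 0.571 (NormZ 1.22). Of the counts of each, 91.7% to 99.3% lay in 1 sgRNA, and none passed NormZ (1.92% of all genes did).

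The listed genes of proteins that Sorafenib inhibits were not called by NormZ either, which called only 1.92% of all genes. BRAF, a kinase that relays RAS signals, had 2.41 and 3.77 CPM under Erastin and 0.774 and 0.979 under Sorafenib, with a log2 difference of 1.79 (SE 0.37) and a NormZ of 0.54 (false discovery rate 0.998). Its sgRNA 1 held 89.4% of the counts. KDR, the main VEGF receptor, had 19.8 and 23.5 CPM under Erastin and 7.54 and 7.67 under Sorafenib, with 97.6% of counts in 1 sgRNA and a NormZ of 0.32. In both genes the Erastin libraries lay above the Sorafenib libraries, and the drugs did not overlap for 82.1% of all tested genes in one direction or the other. Of the 10 receptor kinases, 4 were lower and 1 higher by edgeR (50% called, against 73.1% of all genes), with a median NormZ of -0.26. RET, FLT1 and FLT4 had -1.26, -1.10 and -1.03, and CSF1R -0.48 with no count in either Erastin library. Of 20 genes of the cascade from RAS to ERK, 8 were lower and 6 higher (70% called), with a median of -0.26. SOS2, an exchange factor for RAS, had 158 and 165 CPM under Erastin and 291 and 288 under Sorafenib (log2 difference -0.84, SE 0.04, NormZ -2.02). MAPK3, or ERK1, had a NormZ of 1.79 and MAP2K1, or MEK1, -1.23.

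Among growth factor receptors, 5 of 12 were lower and 4 higher by edgeR, with a median NormZ of 0.03. AXL, a receptor tyrosine kinase, had 82.0 and 81.8 CPM under Erastin and 190 and 178 under Sorafenib, with the vehicle mean at 97.5. Its log2 difference was -1.17 (SE 0.05), its 2 abundant sgRNAs had differences of -0.48 and -1.41, and NormZ was -2.32 (false discovery rate 0.661). ERBB3 had a NormZ of 2.09 with a log2 difference of 0.05 (SE 0.08). MET and FGFR4 had 1.03 and 1.02. In the PI3K, AKT and mTOR list, 4 of 19 genes were lower and 14 higher (94.7% called, against 35.5% lower and 37.7% higher among all genes), with a median NormZ of 0.33. The difference of this split from that of all genes was not tested, and none of the 19 was called by NormZ (1.92% of all genes were). DEPDC5, a brake on mTORC1, and PIK3CB, a catalytic PI3K subunit, were concordant, with NormZ of 1.93 and 1.39. AKT2 had -1.16 and PDPK1 1.05.

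SOD2, the mitochondrial superoxide dismutase, had 75.8 and 75.3 CPM under Erastin and 86.2 and 92.2 under Sorafenib, both under the vehicle mean of 142. The log2 difference was -0.23 (SE 0.06), about the size of the shift under scaling to control sgRNAs, and NormZ was -0.56. Superoxide dismutases, catalase and peroxiredoxins gave 6 lower and 2 higher of 12 by edgeR (66.7% called, against 73.1% of all genes). The list's median NormZ was -0.26. PRDX1 had -1.47, PRDX6 0.98, CAT -0.86 and TXN2 -0.72, and CCS, the copper chaperone of SOD1, was concordant (higher). The KEAP1-NRF2 axis and NADPH supply gave 5 lower and 7 higher of 15 (80% called), with a median of -0.08. ME1, malic enzyme, had -1.96, CUL3, the scaffold of the KEAP1 ligase, -1.60, IDH1 1.21 and MAFG 1.19. The ATF4 and eIF2 stress response gave 6 lower and 2 higher of 13 (61.5% called), with a median of -0.41. CEBPB and CEBPG, partners of ATF4, had -1.75 and -1.63, DDIT3, or CHOP, -1.24, and EIF2AK3, or PERK, 0.96.

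Lipid synthesis genes went both ways. Of 18 tested genes of mevalonate and cholesterol synthesis, 9 were lower and 4 higher by edgeR (72.2% called, against 73.1% of all genes). The list's median NormZ was -0.18. DHCR7, which makes cholesterol from the ferroptosis-protective 7-dehydrocholesterol, had 38.0 and 28.1 CPM under Erastin and 0.580 and 1.31 under Sorafenib, with 99.8% of counts in 1 sgRNA and a NormZ of 2.35 (false discovery rate 0.656). IDI1 and INSIG1 had 1.46 and 1.42. SREBF2, the transcription factor of this pathway, was concordant (lower) with a NormZ of -1.50. Of 13 genes of fatty acid synthesis and desaturation, 5 were lower and 7 higher (92.3% called), with a median of 0.59. ELOVL6, a fatty acid elongase, had -2.36, ACLY, which makes cytosolic acetyl-CoA, 1.93, and SREBF1 -1.27.

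In mitochondria, complex I gave 14 lower and 11 higher of 32 by edgeR, with a median NormZ of -0.26. NDUFS3, a core subunit, had 125 and 123 CPM under Erastin and 166 and 161 under Sorafenib (log2 difference -0.40, SE 0.05, NormZ -2.27), and 96.2% of its counts lay in 1 sgRNA. NDUFA10, NDUFV3 and NDUFA12 had -1.77, -1.66 and -1.65. Folate 1-carbon enzymes gave 4 lower and 11 higher of 17 (88.2% called, against 73.1% of all genes and 37.7% higher), with a median of 0.72. MTR, methionine synthase, had 110 and 120 CPM under Erastin and 67.8 and 69.1 under Sorafenib, with 3 of 4 sgRNAs higher by edgeR at log2 differences of 1.37, 0.49 and 0.93. ALDH1L2, ATIC and GART had NormZ of 1.85, 1.61 and 1.24.

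The BCL2 family and the CDK4/6 and RB list held no gene called by NormZ, against 1.92% of all genes. The BCL2 family gave 3 lower and 6 higher of 15 by edgeR (60% called, against 73.1% of all genes), with a median NormZ of -0.11. NormZ was -2.06 for BIK, 1.64 for BAK1, -1.16 for BCL2 and -0.88 for BCL2L11. The CDK4/6 and RB list gave 3 lower and 6 higher of 14 (64.3% called), with a median of 0.74. E2F1, a transcription factor released by RB, had 89.6 and 84.0 CPM under Erastin and 29.1 and 35.3 under Sorafenib (NormZ 2.28), CCND3 1.42 and CDK6 1.32. RB1 had 10.8 and 9.12 against 22.7 and 19.2, with a NormZ of -1.27.

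In the main fit, TEAD4 and PSMA3 were the only 2 of 433 listed genes with a NormZ p under 0.01. This was 0.46% of the listed genes, against 1.92% of all genes and 2.66% of olfactory receptor genes. TEAD4, a DNA-binding partner of YAP, had 39.2 and 45.8 CPM under Erastin and 85.3 and 88.9 under Sorafenib, with the vehicle mean at 75.2. Its log2 difference was -1.05 (SE 0.07) and its NormZ -3.43 (false discovery rate 0.165). All 4 of its sgRNAs were abundant, but 2 carried the difference: sgRNA 2 and sgRNA 4 had log2 differences of -4.04 and -3.59, and sgRNA 1 and sgRNA 3 had 0.01 and -0.08. With only sgRNAs of at least 30 mean scaled counts in the fit, NormZ was -2.24 and no longer passed. The listed genes DHCR7 (3.53), ELOVL6 (-2.87) and FAR1 (-2.61) passed in that fit, so which listed genes are called depends on the filter. The Hippo list gave 6 lower and 3 higher of 14 by edgeR (64.3% called, against 73.1% of all genes), with a median NormZ of -0.31. LATS2 and NF2, which restrain YAP, both had -1.60, and SAV1 had 1.47.

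PSMA3, a subunit of the proteasome core, had 13.2 and 11.2 CPM under Erastin and 0.580 and 1.55 under Sorafenib, with all 4 sgRNAs higher under Erastin and a NormZ of 3.00 (false discovery rate 0.323). With a pseudocount of 20, its NormZ was 2.55 and no longer passed. No sgRNA of PSMA3 reached a mean of 30 scaled counts. The proteasome gave 4 lower and 12 higher of 30 by edgeR (53.3% called, against 73.1% of all genes), with a median of 0.12. PSMB2, PSMC5 and PSMD11 had 2.42, 1.87 and 1.82, and PSMA5 was concordant (higher). The cytosolic ribosome gave 12 lower and 17 higher of 51 (56.9% called), with a median of -0.19. RPL10A, RPL38 and RPS23 had 2.33, 2.21 and 1.84, and RPL27 -2.20. RPL38 and RPS13 were concordant (higher). Drug transporters of the ABC family gave 1 lower and 2 higher of 8 (37.5% called), with a median of -0.18. ABCC4 had 1.09, ABCC1 -0.74, ABCC5 0.39 and ABCC10 -0.34.

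Hepatocyte transcription factors gave 3 lower and 4 higher of 11, with a median NormZ of 0.47. FOXA3 had 1.91, ONECUT1 -1.12 and PROX1 0.84. Over the 26 lists together, 135 of 422 tested genes were lower and 160 higher by edgeR (69.9% of listed genes against 73.1% of all genes), 2 were concordant lower and 10 higher, and the median NormZ was -0.05 against -0.08. At an unadjusted NormZ p under 0.05, 10 listed genes were lower and 11 higher, 4.85% of the listed genes against 5.62% of all genes. The lists' medians ran from -0.91, for the 3 anion channels, to 0.74. The plot of NormZ by list shows members spread over the range of all genes.

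**Figure D4:**
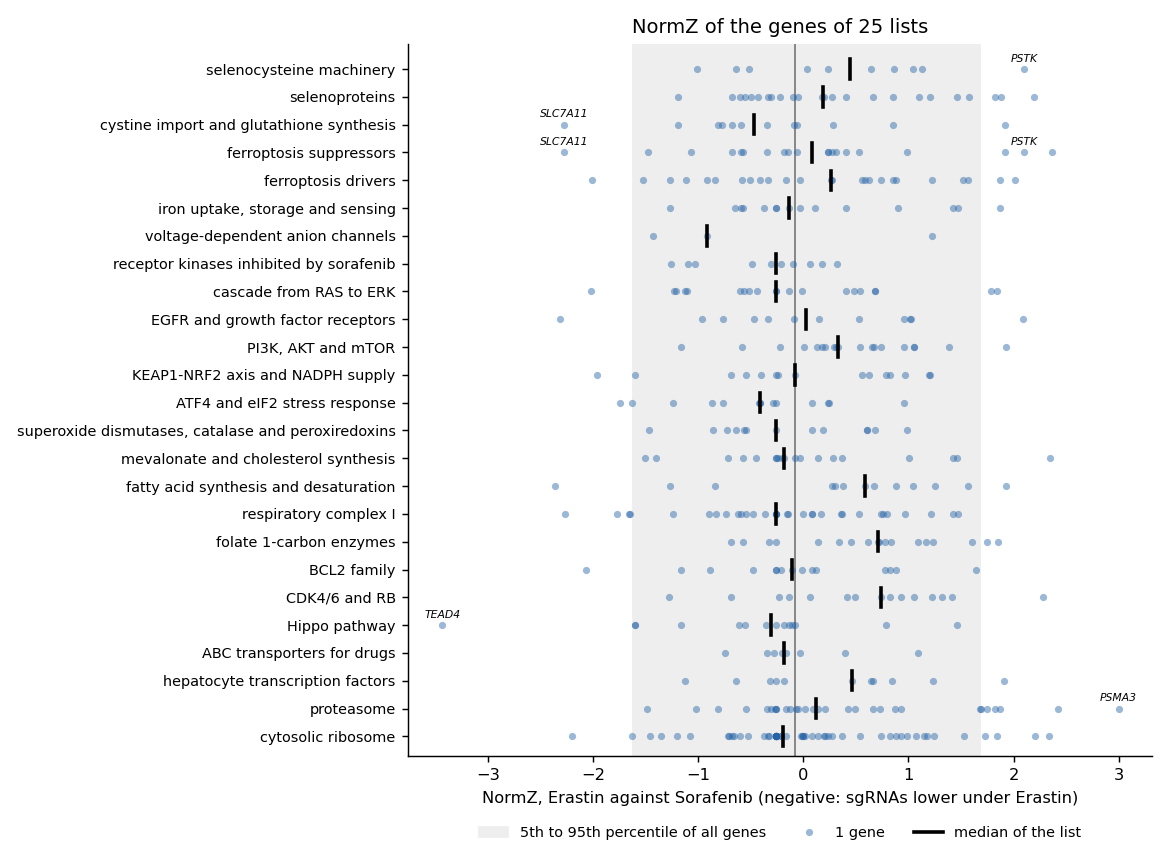
NormZ of each gene (points) in 25 of the 26 lists, with the list's median (black bar), the 5th to 95th percentile of all genes (grey band, -1.62 to 1.68) and the median of all genes (grey line). Points spread over the band in nearly every list, with TEAD4 at -3.43 and PSMA3 at 3.00 outermost.

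Expression was available from 3 control RNA-seq libraries labelled Hep3B, as FPKM. These libraries went against their label, since liver genes that Hep3B is known to express were at or near 0. AFP, APOA1 and TTR were listed at 0 in all 3, ALB was at 0.428 to 0.685 FPKM, and 10 of 11 liver genes, chosen after their values were seen, were under 1 FPKM in every library. The exception was HNF4A at 3.35 to 3.84, and the 11 genes summed to 3.95 to 4.75 FPKM. The epithelial keratins KRT8 and KRT18 were at 454 to 499 and 343 to 380. The libraries are therefore referred to by their label, and whether they match the screened cells was not tested.

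With that limit, genes that differed between the drugs were expressed about as often as other genes. Of 17227 genes with a value, 56.2% had at least 1 FPKM, against 58.1% of those lower by NormZ and 55.9% of those higher. By all 3 criteria, 5 of 9 genes lower and 26 of 40 higher were expressed at that level. Among the leading genes, CDC20 was at 92.1 FPKM, REEP5 at 22.6, HYOU1 at 19.7, PSMG2 at 18.3 and GEMIN5 at 12.3. PAX7, OR4C5, RNASE4, CLVS2 and SPHKAP were listed at 0, and XIRP1 was at 0.00322.

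SNU-398, a second HCC line, was screened with the same drugs and shares no library with Hep3B. In this line, Erastin 2 stood apart: its correlation with the axis of Hep3B vehicle minus SNU-398 vehicle was 0.0244, against -0.491 for Erastin 1 and -0.460 and -0.464 for the Sorafenib libraries. The 4 Hep3B libraries had 0.264 to 0.274. NormZ called 135 genes lower and 166 higher in SNU-398, and 170 and 147 without Erastin 2. As a description across 18027 genes, which are not independent replicates, NormZ correlated between the lines at -0.109 with all libraries and at 0.00643 without Erastin 2. Of the 182 genes lower in Hep3B, 88 had the same sign in SNU-398 without Erastin 2 and 2 were called there in that direction. Of the 165 higher genes, 77 had the same sign, and 0 were called there in that direction by NormZ. These overlaps are not set against the share over all genes. They therefore do not show more or less agreement between the lines than other genes have.

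In SNU-398, PSMG2 had a NormZ of -1.07 with all libraries and -0.73 without Erastin 2, against 4.81 in Hep3B. For CDC20 the library decided the sign, with 0.87 and -0.57 against 4.59 in Hep3B. TEAD4 likewise turned from 0.30 to -1.28, with 62.1 and 76.4 CPM under Erastin and 79.6 and 74.8 under Sorafenib. PSTK had 3.17 with all libraries, which passed a NormZ p of 0.01 in the same direction as in Hep3B, and 1.81 without Erastin 2, which did not. SLC7A11 had -0.28 and -0.12. Differences between the lines in these genes were not tested.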

How the data were processed

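sgRNA abundance was measured in 16 Hep3B libraries (8 groups of 2) and in SNU-398, and expression in 3 control RNA-seq libraries. The authors deposited whole-number counts per sgRNA, made with Bowtie2, and FPKM per gene. The submitters' processing notes name featureCounts 1.5.0-p3 and HISAT2 2.0.5 for the latter. The build of the sgRNA positions was not given in the sources used, and positions are therefore not printed. sgRNA sequences were not used here. The fold changes and p-values of the authors' own RNA-seq comparison were not used. In Hep3B, 100 sgRNAs whose gene symbol had turned into a date took it from the sgRNA identifier. T1 was taken as vehicle.

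Counts were tested in R 4.3.3 with edgeR 4.0.16 (TMM, filterByExpr, quasi-likelihood test with Benjamini-Hochberg adjustment over all features) over all 16 Hep3B libraries, per sgRNA and summed per gene, for Erastin minus Sorafenib. CPM of Hep3B are edgeR values, whereas those of SNU-398 were scaled to the library total without TMM. NormZ followed the steps of DrugZ in Python 3.11.15 (numpy 2.4.6, pandas 2.3.3, scipy 1.17.1): libraries scaled to 1e+07, group means plus 5, log2 ratios centred on their median and divided by the SD in windows of 1000 sgRNAs ordered by the mean of both groups, then summed per gene and standardised, with a two-sided normal p. The libraries were not paired, since nothing ties equal numbers to a shared culture. An exact permutation test of 2 against 2 libraries cannot go below p = 0.333. Both methods were tested on simulated data. Alternatives were other scalings, filters, pseudocounts (1 and 20), window orders, DESeq2 1.42.0, a replicate block and each library left out. Expressed means at least 1 FPKM, and 95.5% of the screened genes had an FPKM value. Figures were drawn with matplotlib 3.10.9.

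Members and lists were chosen with earlier results of these data known. Named genes were, in each direction, the 10 with the largest absolute NormZ among those meeting all 3 criteria, 15 genes drawn from the study or from the drugs' targets, up to 4 leading members of each of 26 lists with any that went against them, and control and olfactory receptor sgRNAs as groups. SCCPDH, PHF19 and the other genes past the false discovery rate, concordant list members not covered by this rule, FOXM1, EIF4A1, TNPO1, MRPL24, PRPS1, PRPSAP2, VGLL4, MAP2, GRSF1, TTC29, CLPS, RETN, FUT7 and TCTEX1D1 were named after their values were seen. A few of the genes that this rule names, and 1 list, are not reported here.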

Additional observations from a re-analysis of the deposited data

Results flagged for a closer look

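For 8 of the 20 leading genes, the summed CPM of both libraries of a drug did not overlap in either line, and the direction was opposite in SNU-398. The difference between the lines was not tested. For another 9 of the 20, the libraries did not overlap in either line and the direction was the same. Over all 17853 tested genes, 27.6% were opposite and 21.0% the same by this measure, so the 8 genes are given as values only. KIAA0020 was at 85.9 and 81.4 CPM under Erastin and 63.6 and 64.6 under Sorafenib in SNU-398, with a NormZ of 1.51 without Erastin 2, the library that stood apart, against -3.36 in Hep3B. In the same terms, NormZ in SNU-398 was 0.80 for C5AR1, 1.88 for PAX7, 0.43 for SLC5A2 and 1.11 for OR4C5, all of them lower under Erastin in Hep3B. It was -1.23 for CLECL1, -0.42 for GEMIN5 and -0.37 for RNF135, all of them higher in Hep3B. None of these SNU-398 values passed a NormZ p of 0.01. SLC5A2 had 0.400 and 1.02 CPM under Erastin and 0 and 0 under Sorafenib in SNU-398.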

How the results depend on the processing

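The split of edgeR calls on genes moved to 4532 lower and 8436 higher with scaling to control sgRNAs, which also turned GCLC to 0.18, BCL2L11 to 0.028 and CDK6 to 0.20 on the log2 scale. Leaving out a library gave 5742 to 6057 genes lower and 6026 to 6619 higher, 10347 to 10874 sgRNAs lower and 12767 to 13968 higher, and 38.1% to 40.2% of control sgRNAs called, against 31.1% without a filter. NormZ at p under 0.01 called 171 to 177 genes lower and 161 to 182 higher without a library, 90 lower with windows ordered by Erastin, and 96 lower and 98 higher with sgRNAs of at least 30 mean counts. At a false discovery rate under 0.05 it called 8 to 10 lower and 8 to 12 higher without a library, 1 lower and 25 higher with windows by Erastin, 2 higher with windows by Sorafenib, 3 lower and 1 higher with at least 30 counts, 3 higher with a pseudocount of 20 and 5 higher with median-of-ratios factors. Listed genes called were 2 to 4 without a library (4 without Erastin 2, where DHCR7 at 2.67 and ELOVL6 at -2.63 also passed, and 3 without Sorafenib 2, where RPL10A at 3.09 did), 1 with a pseudocount of 20 and 4 with windows by either drug. Concordance varied widely, with 21 to 84 lower and 175 to 440 higher without a library (21 and 175 without Sorafenib 1, 84 lower without Erastin 1), 2 and 6 against the full control range, 117 higher in a fit of the 4 libraries, and, chosen after seeing the data, 3 and 93 with at least 30 counts. In SNU-398 without Erastin 2, the numbers were 170 and 147. The causes were not tested. Deviations of equally numbered libraries correlated at 0.0112. Differences between the libraries of a drug were small, so this value cannot settle whether equal numbers share a culture or a run, which was not tested. A replicate block gave 6326 genes lower and 6704 higher, 11398 and 14311 sgRNAs, and 181 and 164 genes by NormZ. DESeq2 called 6027 lower and 6865 higher. Over single named genes, NormZ kept its side of the threshold in 1344 of the refits, passed newly in 11 and no longer passed in 18. The edgeR call did so in 1245, 3 and 7, with the 3 reversals above. SOD2 (-0.01) and FLT1 (-0.05) were not called with control scaling, nor SEPSECS without Erastin 1 (0.22) or KEAP1 without Sorafenib 1 (0.16), nor PRDX1 without Erastin 2 (-0.30). With 2 libraries per group and 46.0% to 52.8% of the sgRNAs at 0, most genes had fewer than 2 abundant sgRNAs, and agreement between sgRNAs could not be read for those at this depth.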

Other observations

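Beyond the leading 10, the 41 genes higher under Erastin by all 3 criteria were mixed. Of the 40 with an expression value, 13 were under 0.1 FPKM in the control RNA-seq libraries, such as TTC29, CLPS, RETN, FUT7 and TCTEX1D1, all listed at 0. The genes named next were picked after their values were seen. FOXM1, a transcription factor of the G2 phase, had 27.9 and 26 CPM under Erastin and 0.0967 and 0.490 under Sorafenib, with a vehicle mean of 7.90. EIF4A1, the RNA helicase of translation initiation, had 12.1 and 11.9 CPM under Erastin against 1.26 and 0.734, and TNPO1, a nuclear import receptor, had 18.5 and 18.5 against 0.290 and 0.163. MRPL24, a protein of the mitochondrial ribosome, had 5.53 and 5.19 against 0 and 0.163. PRPS1, which makes the ribose phosphate donor of nucleotide synthesis, had 18.2 and 16.7 against 0.0967 and 0.326, and PRPSAP2, a partner protein of this enzyme, had 91.8 and 89.2 against 47.4 and 51.0 (NormZ 3.86). VGLL4, a cofactor that binds TEAD proteins, had 23.4 and 23.8 against 1.84 and 4.0 (NormZ 3.63). In each of these genes both Erastin libraries lay above both Sorafenib libraries, which their selection by all 3 criteria favours. The drugs did not overlap for 82.1% of all tested genes in one direction or the other, and no theme was tested.

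Among genes higher under Erastin, 2 passed the false discovery rate without meeting the concordance criterion. MAP2, a microtubule protein of neurons listed at 0.00542 FPKM, had a NormZ of 4.20. GRSF1, an RNA-binding protein of mitochondria, had 36.5 and 40.9 CPM under Erastin and 2.03 and 2.86 under Sorafenib, with a NormZ of 4.4.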
